A study of Mus musculus with 12 samples.

Results

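Peaks of open chromatin that lay in coding exons, in untranslated regions or at transcript ends were compared between bone marrow-derived engrafted cells and host microglia of the same mouse brains. These peaks were taken from the merged peak tables of untreated and lipopolysaccharide (LPS)-treated mice, by an annotation starting with exon, 5' UTR, 3' UTR or TTS, the last being the transcript termination site. Of 60288 untreated peaks 3601 qualified (5.97%), of which 1306 were coding exon, 937 transcript-end, 697 5' UTR and 661 3' UTR peaks. Of 54953 LPS peaks 3142 qualified (5.72%), of which 1143 were coding exon, 791 transcript-end, 660 5' UTR and 548 3' UTR peaks.

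The study profiled chromatin accessibility by ATAC-seq, in which the Tn5 transposase cuts and tags DNA that is free of nucleosomes. C57BL/6J mice labelled WT were irradiated with 950 cGy, received bone marrow from donors carrying the CD45.1 allele, and were analysed 3.5 or 9 months later, an interval that the labels do not assign to single mice. Ly6C/G- CD11b+ brain cells were sorted as CD45.1lo engrafted cells or CD45.2lo host microglia, so that each mouse gave both populations and the host cells had been exposed to the irradiation while the graft had not. The 4 groups were engrafted cells and host microglia of 3 untreated mice (mice 4, 5 and 6), and engrafted cells and host microglia of 3 other mice (mice 1, 2 and 3) killed 12 h after 2.5 mg/kg LPS, a bacterial cell wall component. Peaks had been called, merged and counted separately for untreated and LPS-treated mice, so treatment and table cannot be told apart in any comparison of the treatments. The libraries were bulk populations, in which a smaller share of cells with an open site and less opening per cell cannot be told apart.

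Macrophages carry open chromatin mostly at promoters and at distal enhancers, which are bound by PU.1 together with AP-1, CEBP, IRF and RUNX factors. Parts of coding exons and untranslated regions can also be open, either because they adjoin a promoter or because enhancer elements lie within the transcribed part of a gene. LPS acts through TLR4 and activates NF-kappaB, AP-1 and interferon signalling in macrophages.

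The following stretches of 30 bases, read from the mm9 genome, show binding motifs inside peaks that carry the results described after them. Capitals mark the match, and each peak was searched on both strands for AP-1 (TGANTCA), CEBP (TTGCNNAA) and PU.1 (GAGGAAGT) among 12 motifs. Usp37, Lpxn and Klf2 were higher in engrafted cells, Rasgef1b was higher in host microglia, Arhgap24, Tor1aip2 and Dcps were higher after LPS, and Asph differed in its response.
Usp37 3' UTR, AP-1, chr1:74484794-74484823, plus strand: acgtgggcagagTGACTCAtgcagtacttg
Lpxn transcript end, AP-1, chr19:12908285-12908314, plus strand: tgtggttttggTGACTCActgtcatgttca
Klf2 transcript end, CEBP, chr8:74846397-74846426, plus strand: gctactgacaaTTGCCCAAgttacttccag
Rasgef1b exon, PU.1, chr5:99663620-99663649, minus strand: tcagccagtatGAGGAAGTcctggccaaac
Asph exon, CEBP, chr4:9557851-9557880, minus strand: tcattttggatTTGCATAAtcagtaacttc
Arhgap24 5' UTR, CEBP, chr5:102910511-102910540, plus strand: ttcttgactctTTGCGCAActgctaggatt
Tor1aip2 3' UTR, AP-1, chr1:157913456-157913485, plus strand: cctccttcctgTGAATCAtgcctgctcttg
Dcps transcript end, AP-1, chr9:34931868-34931897, plus strand: ccaggaagctgTGACTCAccagctgtgacc
The Klf2 stretch lies in the wider LPS peak, outside the narrower untreated peak of that gene.

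Total tags per library ranged from 8392877.5 to 9107770 in the untreated table and from 2966364 to 6556594.5 in the LPS table, and tags in merged peaks from 1680263.5 to 3348848 and from 779253 to 2121732.5. The shallower LPS libraries gave less precise values, with a median of 6.5 to 20.0 tags per selected peak against 14 to 31 in untreated libraries. Log tag values of the selected peaks correlated with r = 0.90 to 0.93 within untreated populations and 0.82 to 0.89 within LPS populations, against 0.65 to 0.75 between untreated and 0.66 to 0.72 between LPS populations. The 10 microglia markers all had peaks, whose summed tags in untreated mice were 2603 to 3237 in engrafted cells and 3894 to 4223 in host microglia. Sall1 was lower in engrafted cells (24 to 184 against 998 to 1084) and Csf1r was higher (375 to 397 against 313 to 342), while the ranges of 7 markers overlapped. After LPS the sums were 979 to 1151 and 1297 to 1546, and Sall1 was again lower in engrafted cells (21.8 to 43.1 against 231 to 295). Tmem119 (92.9 to 112 against 46.4 to 82.9) and P2ry12 (132 to 151 against 103 to 131) were then higher in engrafted cells, and Csf1r overlapped (117 to 148 against 132 to 145).

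The 4 classes differed in position and base composition. Of the untreated 5' UTR peaks, 92.1% lay within 1 kb of a transcription start, as did 30.1% of coding exon, 14.2% of transcript-end and 1.66% of 3' UTR peaks, against 28.3% of all peaks. Median GC content was 68.0% in 5' UTR and 61.0% in coding exon peaks, against 53.0% in 3' UTR peaks, 54.0% in transcript-end peaks and 53.0% in all peaks. CpG dinucleotides followed the same order, with a median of 9.0 per 100 bp in 5' UTR, 5.0 in coding exon and 2.0 in the other classes. Transcript-end peaks had their centre a median of 499 bp past the annotated end (interquartile range 241 to 768 bp).

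The gene whose transcript a peak touched was often not the gene with the nearest start. This held for 57.2% of 3' UTR, 50.8% of transcript-end and 27.4% of coding exon peaks, but for 2.32% of 5' UTR peaks in the untreated table. Peaks are named here by the transcript they touched. The selected peaks of the untreated table fell in 2956 genes, of which 2432 held 1 and 524 held 2 or more. Ppp1r9a, which encodes the actin-binding neurabin, held 6 peaks, and Chd9, Creb1, Itsn1, Slc29a1 and Zmynd8 held 5 each. All 6 of the Ppp1r9a peaks were tested and DESeq2 and edgeR called 0 of them different between the populations, with 3 lower in engrafted cells at an unadjusted p under 0.05.

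The first question was where the engrafted cells differed from host microglia in untreated mice. Calls required a difference above 4-fold with an adjusted p below 0.01 (DESeq2, Benjamini-Hochberg adjustment over all peaks tested). Of 3454 selected peaks tested, 176 (5.10%) were called, against 6.43% of all peaks. Engrafted cells were higher at 72 peaks and host microglia at 104, so that 59.1% of the calls were higher in host microglia, against 41.2% of the calls over all peaks. The populations differed by less than 2-fold at 82.2% of the selected peaks and 80.3% of all peaks. Peaks higher in engrafted cells made up 2.08% of the selected peaks tested and 3.78% of all peaks, and peaks higher in host microglia 3.01% and 2.65%. When mouse was blocked and GC content corrected, 40 and 72 peaks were called, and 64.3% of calls were higher in host microglia against 46.0% over all peaks. Without the host library of mouse 5 the counts were 42 and 55, without that of mouse 6 46 and 59, and without the engrafted library of mouse 6 49 and 67.

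Coding exon peaks accounted for most of the excess toward host microglia. Of 1232 coding exon peaks tested, 26 were higher in engrafted cells and 54 in host microglia, so 67.5% of calls were higher in host microglia. Of 654 5' UTR peaks, 2 and 11 were called, which at 1.99% was the lowest share of calls among the classes. The 645 3' UTR peaks gave 19 and 20 calls and the 923 transcript-end peaks 25 and 19. With the mouse as a block, coding exon calls were 16 and 38 and 3' UTR calls 12 and 14, and with a GC correction added coding exon, 3' UTR and transcript-end calls were 15 and 38, 9 and 14, and 16 and 12. The 3' UTR counts turned toward engrafted cells without the engrafted library of mouse 6 (11 and 6) or the host library of mouse 4, 5 or 6 (16 and 13, 13 and 8, and 12 and 7). Transcript-end calls were 6 and 9 at a mean count of at least 20 and 14 and 10 without the host library of mouse 5. Coding exon calls ranged from 8 to 28 and from 14 to 67 over 12 alternatives and were more often higher in host microglia in each. The differences between classes are counts beside the share over all peaks and were not tested against each other.

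**Figure D1:**
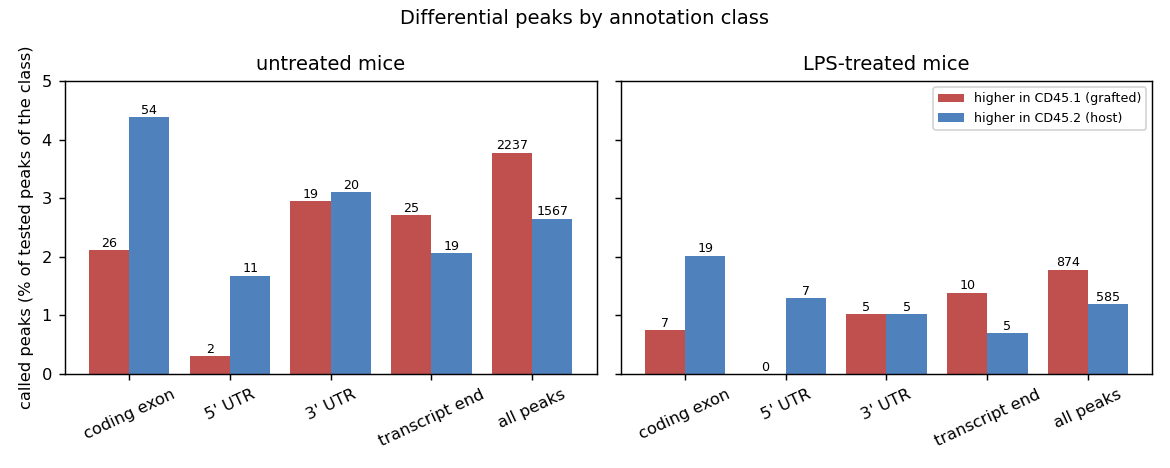
Share of tested peaks called different between CD45.1 engrafted cells and CD45.2 host microglia (vertical axis, percent of tested peaks of the class) in untreated (left) and LPS-treated mice (right), for the 4 classes and for all peaks; numbers above bars are counts. In untreated mice coding exon peaks were called 26 times in the direction of engrafted cells and 54 times in the direction of host microglia, whereas all peaks were called 2237 and 1567 times.

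Within coding exons, calls were rare near promoters. In the untreated table, 1.73% of 346 tested coding exon peaks within 1 kb of a start were called (2 higher in engrafted cells, 4 in host microglia), against 8.35% of 886 peaks farther away (24 and 50). First exons gave 1.61% of 249 peaks, internal exons 7.12% of 660 and last exons 9.96% of 251. In last exons 6 peaks were higher in engrafted cells and 19 in host microglia. Over all peaks, at any distance from a start, 6.43% were called. That share was not split by distance or position, so these contrasts cannot be called particular to coding exons. The 5' UTR peaks, of which 92.1% lay within 1 kb of a start, were also rarely called (1.99%). The called peaks also differed in base composition, with a median GC content of 45.5% where engrafted cells were higher and 57.0% where host microglia were higher, against 43.0% and 52.0% over all called peaks. Of the 72 and 104 calls, 35 and 50 had no more than 3 tags in any library of the lower population, where a fold change is a lower bound.

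The tag content of the classes showed the same direction within mice. Coding exon peaks held 1.33%, 1.35% and 1.27% of the peak tags of engrafted cells in untreated mice and 1.42%, 1.52% and 1.49% of those of host microglia. After LPS the shares were 1.31%, 1.24% and 1.17% in engrafted cells and 1.41%, 1.45% and 1.48% in host microglia. The engrafted cells were thus lower in 6 of 6 mice, and the populations did not overlap within a treatment. The mean difference was -0.186 percentage points ± 0.0800 (SD, n = 6 mice; two-sided exact paired permutation p = 0.03125, the smallest that 6 mice allow; adjusted p = 0.0521 over 5 tests). Compared without pairing, each treatment gave an exact permutation p of 0.1, the smallest that 3 against 3 libraries allow. The coding exon peaks beyond 1 kb of a start gave -0.144 ± 0.0645 points, again in 6 of 6 mice. As a share of all tags of the library, with those outside peaks, the coding exon difference was -0.0261 ± 0.151 points (exact p = 0.594), lower in 4 of 6 mice. The mean GC content of peak tags was also lower in engrafted cells, by 0.484 points in the mean and in 6 of 6 mice, and its part in the coding exon difference was not tested.

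The other classes differed less. In 5' UTR peaks the difference was -0.0538 ± 0.0509 points and in the same direction in 6 of 6 mice (exact p = 0.03125, adjusted p = 0.0521). For 3' UTR peaks it was -0.0367 ± 0.0435 points, in 5 of 6 mice (exact p = 0.0938, adjusted p = 0.117). Transcript-end peaks gave -0.0184 ± 0.0825 points (exact p = 0.625, adjusted p = 0.625), lower in 4 of 6 mice, so no difference was detectable there. In these classes too, more peaks were in lists of host libraries alone than in lists of engrafted libraries alone, in both tables.

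**Figure D2:**
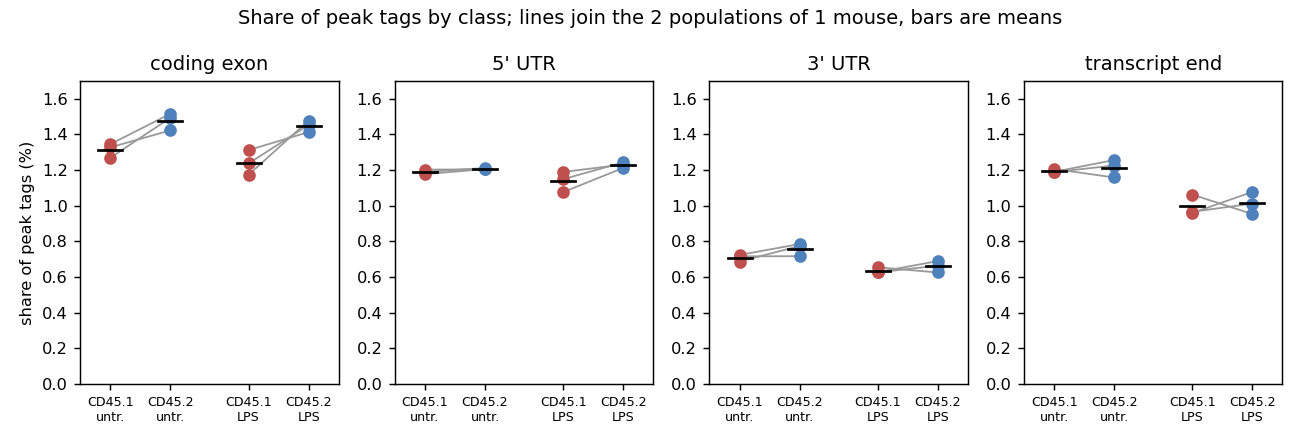
Share of peak tags (vertical axis, percent) that fell in each of the 4 classes, per library, with lines joining both populations of 1 mouse and bars at the mean of 3 libraries. In coding exons the line rises from CD45.1 to CD45.2 in 6 of 6 mice, whereas transcript-end shares overlap between the populations.

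Among the peaks higher in engrafted cells of untreated mice, the transcript end of Klf2 had the smallest adjusted p. Klf2 is a Kruppel-like transcription factor of leukocytes and endothelium, and its peak (chr8:74846463-74846573) lay 3557 bp from its start. It held 85.4, 78.0 and 93.1 normalized tags (tags divided by the size factor of the library) in engrafted cells and 8.19, 13.5 and 12.2 in host microglia, so the groups did not overlap. The log2 fold change was 2.84 ± 0.33 (SE; DESeq2 adjusted p = 1.2e-14). In the LPS mice the matched Klf2 peak, on separate size factors, held 53.8, 55.4 and 40.1 tags against 12.3, 7.85 and 10.1, a log2 fold change of 2.33 ± 0.40 (DESeq2 adjusted p = 1.6e-06). For the Klf2 locus the paper reported ATAC signals in host cells and none in the graft, which is the opposite direction. Other peaks of that locus are not described here.

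Usp37, a deubiquitinating enzyme, had a pair of peaks that were both higher in engrafted cells. The 3' UTR peak in exon 24 of 24 (chr1:74484719-74484823), which holds the AP-1 match printed above, had 58.8, 62.1 and 74.1 tags against 7.37, 7.35 and 5.68, a log2 fold change of 3.28 ± 0.42 (DESeq2 adjusted p = 1.7e-12). The transcript-end peak of Usp37, chosen after its values were seen, had 45.7, 26.9 and 53.9 tags against 9.83, 5.03 and 10.5 (log2 fold change 2.39 ± 0.46). The nearest start to both belonged to Vil1. Neither peak was called in the LPS mice, where the log2 fold changes were 1.29 and 1.13.

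Further peaks higher in engrafted cells lay in exons and at an end. Exon 8 of 9 of Plscr4, a phospholipid scramblase, held 56.9, 73.9 and 52.3 tags against 4.92, 3.48 and 5.68, a log2 fold change of 3.77 ± 0.48. Exon 21 of 23 of Zc3h7a, an RNA-binding zinc finger protein, held 48.5, 54.8 and 33.8 tags against 2.46, 5.03 and 4.06, a log2 fold change of 3.48 ± 0.52. The transcript end of Lpxn, a focal adhesion adaptor of leukocytes, held 49.0, 57.5 and 74.6 tags against 9.01, 6.19 and 8.93, a log2 fold change of 2.89 ± 0.41. At all 3 the lowest engrafted library was above the highest host library. The 5' UTR of Zmynd8, a chromatin reader, had 14.9, 16 and 18.5 tags against 2.46, 0.774 and 0.406, which is at least 5.11-fold higher with the host libraries set to a floor of 3 tags each, and it was called in 8 of 11 alternatives. Zmynd8 was not called without the host library of mouse 5 or mouse 6 (DESeq2 adjusted p = 0.020 and 0.019), nor when mouse was blocked and GC content corrected (0.0186).

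Mid1, a microtubule-associated ubiquitin ligase whose gene spans the boundary of the pseudoautosomal region in this strain, had a transcript-end peak that was at or near 0 in host microglia of untreated mice. The peak (chrX:166429133-166429252) held 75.1, 66.6 and 75.1 tags in engrafted cells and 0, 0.387 and 0.812 in host microglia of untreated mice, at least 22.4-fold higher (floor of 3 tags per library). The wider Mid1 peak of the LPS table held 86.1, 93.9 and 92.9 tags against 0.876, 0.872 and 2.97 (log2 fold change 5.71 ± 0.65, DESeq2 adjusted p = 5.8e-15). A neighbouring Mid1 peak at chrX:166429337-166429431 held 44.3, 29.7 and 40.8 tags against 27.9, 24.4 and 21.5 and was not called (log2 fold change 0.66 ± 0.34, DESeq2 adjusted p = 0.22). Over all tested untreated peaks of chromosome X, 43 of 1263 were called higher in engrafted cells and 7 in host microglia, and of the 32 on chromosome Y 0 and 1. Over all 59170 tested peaks the counts were 2237 (3.78%) and 1567 (2.65%). The sex of the donors and hosts of these libraries is not in the labels, and its part in the Mid1 difference was not tested. The Mid1 peaks of the untreated table were chosen for mention after their values were seen.

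Of the peaks higher in host microglia, a 3' UTR peak of Lars2, the mitochondrial leucyl-tRNA synthetase, had the smallest adjusted p and the highest tag density of its class. It lay in exon 21 of 21 (chr9:123371062-123371156) and held 27.1, 30.6 and 47.4 tags in engrafted cells against 266, 209 and 150 in host microglia, a log2 fold change of -2.56 ± 0.25 (DESeq2 adjusted p = 1.3e-21). In the LPS mice it held 10.9, 13 and 5.66 tags against 85.8, 93.3 and 74.8, a log2 fold change of -3.10 ± 0.37. The 30 bases at its centre are shown because the peak led the calls higher in host microglia.
Lars2 3' UTR, chr9:123371094-123371123, plus strand: tggcggccaagcgttcatagcgacgtcgct
Peaks that the authors annotated to ribosomal RNA repeats moved the same way. Of 41 such untreated peaks tested, 28 were called higher in host microglia and 0 in engrafted cells (edgeR 24 and 0, and 37 and 2 at an unadjusted p under 0.05), with a median log2 fold change of -2.09, and after LPS 17 of 27 were, with a median of -2.40. The longest run of bases that the Lars2 peak shared with any of them was 16 in the untreated and 20 in the LPS table. Only these annotated peaks were compared, and not a ribosomal RNA sequence. The runs therefore cannot show how much ribosomal sequence the Lars2 peak holds. Whether reads of ribosomal repeats contributed to the Lars2 peak was not tested.

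Coding exons gave the next peaks higher in host microglia. The last exon of Slc1a3, a glutamate transporter used as an astrocyte marker, held 35.4, 37.4 and 15.8 tags against 111, 140 and 137 (log2 fold change -2.13 ± 0.26, DESeq2 adjusted p = 2.5e-13). Exon 12 of 14 of Lgmn, a lysosomal protease, held 29.4, 32.4 and 8.71 against 108, 111 and 94.1 (log2 fold change -2.11 ± 0.30). Exon 5 of 14 of Rasgef1b, a guanine nucleotide exchange factor, held 1.87, 10.04 and 5.45 tags against 41.0, 51.9 and 64.5 (log2 fold change -3.19 ± 0.47), and its PU.1 match is printed above. At each of them every engrafted library was below every host library. Without the engrafted library of mouse 6 the log2 fold changes of Slc1a3 and Lgmn were -1.83 and -1.72, short of the 4-fold limit, and without the host library of mouse 5 Lgmn had a DESeq2 adjusted p of 0.018. Exon 10 of 16 of Myb, a haematopoietic transcription factor named after its values were seen, held 5.60, 5.93 and 3.27 tags against 42.6, 43.0 and 41.0 (log2 fold change -3.12 ± 0.50).

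Slc1a3 belongs to the list of astrocyte markers, whose 6 genes all had peaks. Their summed tags were 659 to 812 in engrafted cells and 1361 to 1531 in host microglia of untreated mice. Without Slc1a3 the other 5 genes (Gfap, Aqp4, Aldh1l1, Gja1 and Slc1a2) summed to 379 to 451 and 413 to 514, so that their ranges overlapped. Slc1a3 alone gave 280 to 361 and 942 to 1016. Neuron markers summed to 138 to 166 and 279 to 329 over the 6 of 8 genes with peaks, and Gad1 and Stmn2 had no peak. Syt1 (0 to 0.933 against 33.6 to 65.3), Snap25 (4.90 to 16 against 67.3 to 116) and Rbfox3 (22.8 to 26.1 against 37.7 to 55.7) did not overlap. Gad2 (32.4 to 46.8 against 26.0 to 69.6), Slc17a7 (46.2 to 53.9 against 42.2 to 50.0) and Tubb3 (19.6 to 36.5 against 21.9 to 27.5) did overlap. The sums of endothelial markers (669 to 690 against 914 to 985) and oligodendrocyte markers (382 to 400 against 460 to 473) were also higher in host microglia. Those of T and B cells were lower (279.8 to 336 against 199.7 to 220.3), and those of neutrophils overlapped. Single genes of these lists also went against their sums. Flt1 (210 to 268 against 159 to 196), Mag (48.8 to 63.7 against 34.1 to 41.4) and Olig1 (71.3 to 86.3 against 45.9 to 58.8) were higher in engrafted cells. Cd4 was higher in host microglia (38.8 to 50.6 against 54.1 to 68.9). The part of other brain cells in the host-biased exon peaks was not tested.

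Untranslated and transcript-end peaks were also among those higher in host microglia. The 5' UTR of Slc41a3, a magnesium transporter, held 7.93, 7.76 and 3.81 tags against 52.4, 49.9 and 44.2, a log2 fold change of -2.91 ± 0.45. The transcript end of Bin1, a membrane-bending adaptor listed among homeostatic microglia genes, held 4.66, 12.8 and 1.63 tags against 60.6, 47.6 and 45.0, a log2 fold change of -2.92 ± 0.46. Psat1, an enzyme of serine synthesis, had a pair of transcript-end peaks, mentioned after their values were seen. The first (chr19:15979366-15979520) held 1.87, 0.913 and 1.09 tags against 68.8, 39.5 and 30.8, which is at least 15.8-fold lower, and the second (chr19:15978708-15978851) 8.86, 9.58 and 4.36 against 39.3, 46.1 and 42.6.

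The peaks with the highest tag density in their class were mostly equal between the populations. Exon 2 of 14 of Mcm9, a DNA helicase, held 264, 228 and 224 tags against 274, 219 and 213 in untreated mice, a log2 fold change of 0.04 ± 0.15. The 5' UTR of the zinc finger gene Zfp446 held 253, 246 and 264 against 339, 212 and 238, a log2 fold change of -0.03 ± 0.16. The transcript end of Tmc4, a channel-like membrane protein, held 164, 171 and 173 against 209, 178 and 155, a log2 fold change of -0.08 ± 0.16. The libraries of both populations overlapped at all 3. After LPS, the densest 3' UTR peak was that of Scarb2, a lysosomal receptor (log2 fold change 0.18 ± 0.25), and the densest transcript-end peak that of Ssrp1, a histone chaperone subunit (log2 fold change 0.41 ± 0.24). Lars2 was the exception among the densest peaks.

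In LPS-treated mice the same comparison gave fewer calls. Of 2695 selected peaks tested, 58 (2.15%) were called, against 2.97% of all peaks, with 22 higher in engrafted cells (all peaks 1.78%) and 36 higher in host microglia (all peaks 1.19%). Less than 2-fold differences made up 82.4% of the tested peaks, against 81.9% of all peaks. Host microglia were higher at 62.1% of the calls, against 40.1% over all peaks. Coding exon peaks gave 7 and 19 calls among 941, 5' UTR peaks 0 and 7 among 544 (edgeR 1 and 10, and 15 and 26 at an unadjusted p under 0.05), 3' UTR peaks 5 and 5 among 492, and transcript-end peaks 10 and 5 among 718. Coding exon calls were 1 and 13 with the mouse as a block and 0 to 2 and 6 to 15 without single libraries. With the mouse as a block the counts over the 4 classes were 7 and 21, and with a GC correction added 6 and 23, so that 79.3% of the calls were higher in host microglia. These counts are less certain than the untreated ones. Without the engrafted library of mouse 1, 2 or 3 they were 8 and 10, 8 and 22, or 12 and 11. Without the host library of mouse 1, 2 or 3 they were 10 and 23, 5 and 13, or 4 and 24.

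The leading peaks of the LPS mice lay in all 4 classes. At the end of Fxyd5, which encodes a regulator of the sodium pump, a peak held 54.2, 39.8 and 28.8 tags in engrafted cells against 4.38, 3.92 and 3.27 in host microglia (log2 fold change 3.53 ± 0.56, DESeq2 adjusted p = 1.5e-07). The first exon of Dach1, a transcription cofactor, held 20.6, 22.2 and 23.1 against 1.75, 0.872 and 1.48, at least 6.83-fold higher. The last exon of Ppp3cc, a catalytic subunit of calcineurin, carried a 3' UTR peak with 19, 15.7 and 22.2 tags against 0.876, 0.872 and 1.78, at least 5.89-fold higher. At these 3 peaks the populations did not overlap. Without the host library of mouse 3 Dach1 and Ppp3cc were not called (DESeq2 adjusted p = 0.012 and 0.021), nor was Ppp3cc without that of mouse 2 (0.012). A transcript-end peak of 4930554I06Rik, a gene without an assigned function, gave a log2 fold change of 2.90 ± 0.51.

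Higher in host microglia after LPS were peaks of Marchf4, Rxrg, Magi1 and Commd8. The last exon of Marchf4, a membrane-bound ubiquitin ligase, held 8.49, 19.6 and 22.6 tags in engrafted cells against 97.2, 68.9 and 66.2 (log2 fold change -2.23 ± 0.35, DESeq2 adjusted p = 1.4e-07; -1.83 and short of the 4-fold limit without the engrafted library of mouse 1). The 5' UTR of Rxrg, the retinoid X receptor gamma, held 0, 0.652 and 0 tags against 35.0, 29.7 and 25.2, at least 9.81-fold lower. Exon 15 of 22 of Magi1, a junctional scaffold protein, held 0.404, 1.30 and 0 against 40.3, 31.8 and 30.3, at least 11.2-fold lower. For Rxrg and Magi1 the engrafted libraries were at or near 0. The 3' UTR of Commd8, of the COMM domain family, held 1.62, 5.87 and 7.55 tags against 54.3, 47.5 and 22.6, and the second Psat1 peak was again higher in host microglia (log2 fold change -2.82 ± 0.60). This Psat1 call was lost without the engrafted library of mouse 1 or 3 or the host library of mouse 2 (DESeq2 adjusted p = 0.0104, 0.01003 and 0.027).

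**Figure D3:**
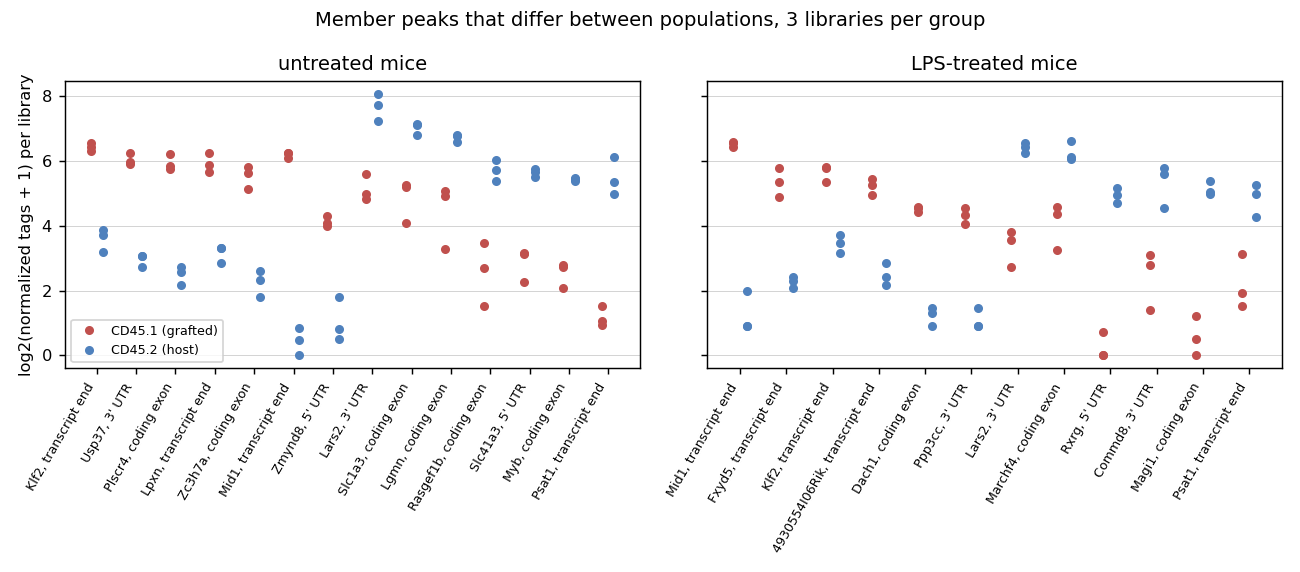
Tags per library (vertical axis, log2 of normalized tags plus 1) at peaks described in the text, in untreated (left) and LPS-treated mice (right), red for CD45.1 engrafted cells and blue for CD45.2 host microglia, 3 libraries each. At every peak shown the 3 libraries of one population lie apart from the 3 of the other.

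The populations did not overlap at 34.4% of the selected peaks tested in untreated mice and 26.7% of those in LPS mice, called or not, close to 35.5% and 27.1% of all peaks. The untreated and LPS mice were different animals, which allowed the direction of each call to be read in mice that had not been used for it. Of the 72 untreated peaks higher in engrafted cells, 42 had a matched and tested peak in the LPS table. All 42 had the same direction there, and 13 of them were called (36.4% over all peaks). Of the 104 peaks higher in host microglia, 43 had such a match, of which all 43 had the same direction and 21 were called (50.8% over all peaks). In all peaks, 99.3% of 1276 and 99.9% of 728 matched calls had the same direction. Conversely 16 of the 22 and 25 of the 36 LPS calls had a match, all with the same direction in untreated mice, and 14 and 23 of them were called there (88.2% and 89.2% over all peaks). The other untreated calls had no tested match, so their direction in other mice is not known.

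Few of the selected peaks belonged to genes known for macrophage identity. Of the 31 homeostatic microglia genes, 13 held 16 tested untreated peaks, of which 2 were higher in engrafted cells (3.78% over all peaks) and 4 in host microglia (2.65% over all peaks). The homeostatic list contains Klf2 and Bin1, described above. Exon 4 of 4 of Sall1, the transcription factor that defines microglia, held 2.80, 0.913 and 0.545 tags against 19.7, 24 and 19.9, at least 7.22-fold lower, and exon 1 of 39 of Nav3 held 0.466, 0 and 0.545 against 12.3, 11.2 and 13, at least 4.15-fold lower. After LPS, 1 of 12 tested peaks of this list was called, that of Klf2. The list of 31 genes of monocyte-derived macrophages had 6 tested peaks, of which 2 were higher in engrafted cells and 0 in host microglia (also by edgeR; 4 and 0 at an unadjusted p under 0.05), beside the same shares over all peaks. They were the 3' UTR of Ms4a7, a membrane protein of macrophages, with 23.3, 30.1 and 28.9 tags against 4.92, 3.10 and 2.43 (log2 fold change 3.07 ± 0.61), and exon 11 of 17 of Cd163, the haemoglobin scavenger receptor, with 16.8, 2.74 and 11.4 against 0 in each host library, at least 3.20-fold higher and called in 7 of 11 alternatives. After LPS, 1 of 8 tested peaks of that list was called, the same Cd163 exon, in 4 of 10 alternatives and not with the mouse as a block (DESeq2 adjusted p = 0.0321).

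Genes of LPS and interferon responses had too few tested peaks to be set apart from the 6.43% and 2.97% of all peaks that were called. Of 13 untreated peaks in genes of the LPS and NF-kappaB response, 0 were higher in engrafted cells and 1, the 3' UTR of Tnfaip2, was higher in host microglia, with 4.20, 0.913 and 1.63 tags against 13.9, 16.6 and 13.4. Tnfaip2 was called in 2 of 11 alternatives and not with the mouse as a block (DESeq2 adjusted p = 0.0347). None of 7 was called after LPS, and none of 11 untreated and 6 LPS peaks of interferon-stimulated genes was by DESeq2 or edgeR. At an unadjusted p under 0.05, 1 of the 7, 1 of the 11 and 0 of the 6 were lower in engrafted cells and 0 were higher. Of 70 untreated peaks in C2H2 zinc finger genes 1 was higher in engrafted cells and 2 in host microglia, and of 65 LPS peaks 1 and 0. Of 23 peaks of developmental transcription factors in each table, DESeq2 called 0 untreated peaks (edgeR 1, and 6 at an unadjusted p under 0.05 in either direction) and 1 LPS peak, the 5' UTR of Pax9, with 0, 1.30 and 3.77 tags against 23.6, 10.5 and 14.5, which was called in 2 of 11 alternatives and not with the block (DESeq2 adjusted p = 0.0261). Histone genes had 1 untreated peak, which was not called.

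The donor and host alleles differ by design at Ptprc, which encodes CD45, and no selected peak lay in it. The study also used Cx3cr1 reporter donors in other experiments, and Cx3cr1, the fractalkine receptor of microglia, held a 3' UTR peak. It had 10.3, 10.5 and 21.2 tags in engrafted cells against 4.92, 10.1 and 3.65 in untreated mice, and 22.2, 23.5 and 24.1 against 8.76, 12.2 and 13.4 after LPS. Neither difference was called (log2 fold changes 1.19 ± 0.64 and 1.00 ± 0.45, DESeq2 adjusted p = 0.25 and 0.21).

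The second question was how the same peaks stood after LPS in each population. For it, 2078 selected peaks were matched between the tables by reciprocal overlap of at least 50%, which was 57.7% of the untreated and 66.1% of the LPS members, and 2046 of them had the same class in both. The matched LPS peaks were wider, with a median of 166 against 141 bp, and 2054 were tested in 1 fit of all 12 libraries. Calls required a difference above 2-fold with an adjusted p below 0.05. In engrafted cells 96 were higher after LPS (4.67%, all peaks 6.78%) and 118 lower (5.74%, all peaks 4.93%). In host microglia 112 were higher (5.45%, all peaks 7.69%) and 70 lower (3.41%, all peaks 3.69%). Scaled to total tags, which moved the median log2 difference of all peaks to -0.04 in engrafted cells and -0.15 in host microglia, the counts were 56 and 40 in engrafted cells and 62 and 39 in host microglia. Among 1009 pairs of similar width in both tables they were 28 and 43, and 32 and 18.

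By class, engrafted cells had 35 higher and 36 lower coding exon peaks among 682, 14 and 21 of 404 5' UTR peaks, 23 and 24 of 390 3' UTR peaks, and 24 and 37 of 578 transcript-end peaks. Host microglia had 34 and 21, 18 and 10, 27 and 17, and 33 and 22 in the same order. Among the 4 classes, 3' UTR peaks had the highest share of peaks higher after LPS in both populations (5.90% and 6.92%). These shares were below those of all matched peaks (6.78% and 7.69%). Of the calls higher after LPS 60 were shared (62.5% of those in engrafted cells and 53.6% of those in host microglia), of the lower calls 35 (29.7% and 50.0%), and no peak was called in opposite directions. Over all matched peaks the shares were 65.7% and 58.0% for higher and 35.6% and 47.6% for lower calls. Lower calls depended more on single libraries. Without the engrafted LPS library of mouse 3 they fell to 47 in engrafted cells, without that of mouse 2 to 61, and without the untreated engrafted library of mouse 5 to 72. In host microglia they fell to 32 and 40 without the untreated libraries of mice 5 and 6, and to 43, 38 and 46 without the LPS libraries of mice 1, 2 and 3.

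A 5' UTR, a 3' UTR and a transcript-end peak led the increases in both populations. The 5' UTR of Arhgap24, a GTPase-activating protein, rose from 9.34, 16.2 and 15.8 to 86.7, 114 and 97.9 tags in engrafted cells. In host microglia it rose from 19, 13.4 and 17 to 115, 111 and 124, and the log2 fold change was 2.85 in both (SE 0.27 and 0.26; DESeq2 adjusted p = 1.2e-22 and 5.4e-25). The Arhgap24 libraries of the treatments did not overlap in either population, and the peak was 175 bp wide in the untreated and 230 bp in the LPS table. The 3' UTR of Tor1aip2, which encodes a torsin-activating membrane protein, rose from 8.71, 10.4 and 12.5 to 83.8, 103 and 97.9 tags in engrafted cells and from 5.44, 7.90 and 6.04 to 58.0, 50.5 and 64.8 in host microglia (log2 fold changes 3.16 ± 0.30 and 3.13 ± 0.35, widths 105 and 191 bp). The transcript end of Dcps, the scavenger decapping enzyme, rose from 7.78, 5.51 and 15.8 to 78.5, 107 and 77.6 and from 5.98, 3.95 and 7.14 to 89.5, 61.9 and 67.8 (log2 fold changes 3.21 ± 0.33 and 3.62 ± 0.37, widths 188 and 369 bp). As with Arhgap24, treated and untreated libraries did not overlap for Tor1aip2 and Dcps, whose sequences are printed above.

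Decreases were smaller. The 5' UTR of Idi1, an enzyme of isoprenoid and cholesterol synthesis, fell from 159, 159 and 127 to 53.9, 94.3 and 24.5 tags in engrafted cells and from 171, 152 and 140 to 92.1, 80.9 and 51.6 in host microglia (log2 fold changes -1.42 ± 0.26 and -1.09 ± 0.25, the second called in 9 of 14 alternatives), while the peak was narrower after LPS (301 and 189 bp). The transcript end of Aagab, an adaptor-binding protein of vesicle traffic, fell from 40.5, 52.0 and 57.7 to 19.9, 15.5 and 3.50 in engrafted cells (log2 fold change -1.96 ± 0.42). In host microglia Aagab stood at 8.70, 17.7 and 15.7 before and 7.57, 12.0 and 9.63 after LPS and was not called (log2 fold change -0.51 ± 0.46, DESeq2 adjusted p = 0.50). That of 9430041J12Rik was likewise called in engrafted cells alone (log2 fold changes -1.67 ± 0.36 and -0.85 ± 0.35). Neither peak was called for a different response between the populations.

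In host microglia the leading decreases lay in an exon of Epb41l2, an exon of Gramd1a and at the end of Tifab. Epb41l2, a cytoskeletal linker of the protein 4.1 family, fell from 68.0, 71.4 and 63.7 to 15.1, 31.6 and 16.6 tags (log2 fold change -1.65 ± 0.31). Gramd1a, a sterol transfer protein, fell from 54.9, 56.4 and 58.5 to 26.5, 15.8 and 11.4 (log2 fold change -1.86 ± 0.35), and Tifab, related to the NF-kappaB activator TIFA, fell from 32.1, 45.6 and 34.9 to 8.83, 8.84 and 11.4 (log2 fold change -1.90 ± 0.40). All 3 were also called lower in engrafted cells, with log2 fold changes of -1.20 ± 0.34, -1.43 ± 0.37 and -1.42 ± 0.38. The Cx3cr1 3' UTR peak was higher after LPS in engrafted cells and in host microglia (log2 fold changes 1.88 ± 0.41 and 2.01 ± 0.51). None of 6 matched peaks in genes of the LPS and NF-kappaB response was called in either population by DESeq2 or edgeR, with 0 at an unadjusted p under 0.05. Of 6 in interferon-stimulated genes DESeq2 called 0, while 1 was lower in engrafted cells at an unadjusted p under 0.05 and by edgeR.

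**Figure D4:**
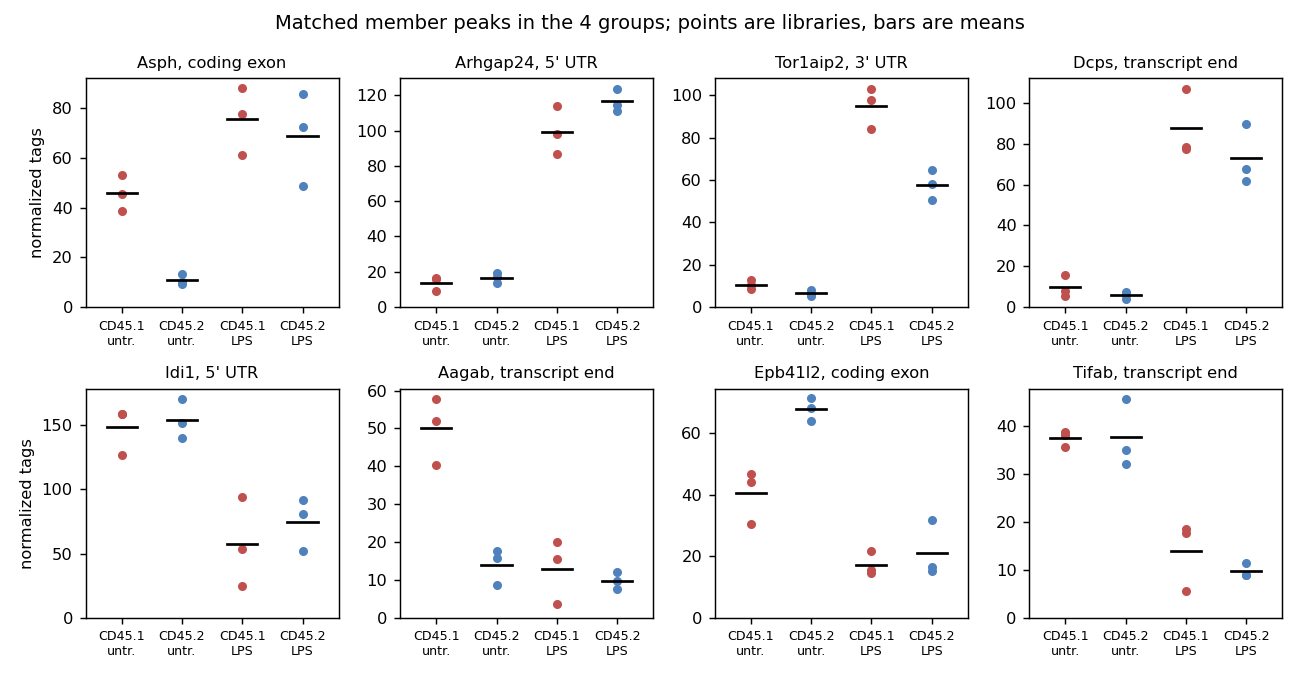
Normalized tags (vertical axis, scale set per panel) at 8 matched peaks in untreated and LPS-treated mice, with a point per library (red CD45.1 engrafted cells, blue CD45.2 host microglia) and bars at means of 3. Arhgap24, Tor1aip2 and Dcps were higher after LPS in both populations, Idi1, Epb41l2 and Tifab lower in both, Aagab was called lower in engrafted cells, and Asph differed between untreated populations and converged after LPS.

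The populations responded differently at 1 of 2054 matched peaks (0.0487%, all peaks 0.245%; DESeq2 interaction at an adjusted p under 0.05), and at 4 by edgeR. The call was negative (all peaks 0.227%), and 0 selected peaks were positive (all peaks 0.0178%), also by edgeR, with 27 positive at an unadjusted p under 0.05. Unadjusted p-values under 0.05 were found at 84 peaks (4.09%, all peaks 5.33%). The called peak lay in exon 5 of 5 of Asph, an aspartyl hydroxylase of the endoplasmic reticulum (chr4:9557846-9557970). Engrafted cells held 38.6, 45.6 and 53.0 tags there before and 77.9, 61.2 and 88.1 after LPS, and host microglia 9.25, 10.3 and 13.2 before and 85.8, 48.6 and 72.6 after. The populations were thus apart in untreated mice and overlapped after LPS. The log2 response was 0.75 ± 0.25 in engrafted cells and 2.60 ± 0.31 in host microglia, a difference of -1.85 ± 0.40 (DESeq2 adjusted p = 0.0023). With the mouse as a block the difference was -1.91 (DESeq2 adjusted p = 0.0204), and a second peak, the transcript end of Clec4a1, was called. Clec4a1 was also called, beside Asph, by edgeR and without the untreated library of mouse 4 of either population, the untreated engrafted library of mouse 5, the untreated host library of mouse 6 or the LPS library of mouse 2 of either population (DESeq2 log2 differences from -6.51 to -3.56). Usp37 was called without the host LPS library of mouse 1 (-2.17) and Ceacam19 without the untreated engrafted library of mouse 5 (-2.42). The Asph peak was 125 bp wide in the untreated and 243 bp in the LPS table, so it was not among the pairs of similar width, where no interaction was called.

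Motif matches were counted in the central 100 bp of each peak, each motif alone, so a window can hold several. In the LPS table AP-1 was found in 5.28% of the selected peaks against 9.14% of all peaks, and in 2.42% of 5' UTR, 4.37% of coding exon, 7.33% of transcript-end and 7.66% of 3' UTR peaks. CEBP was found in 6.27% against 7.08% of all peaks and PU.1 in 5.22% against 5.99%. The GC box (GGGGCGGGG), a promoter element, was most frequent in 5' UTR peaks (7.12%, all peaks 4.10%), and the CTCF core in coding exon peaks (3.67%, all peaks 2.11%), though in the untreated table it was most frequent in 3' UTR peaks (4.54%, coding exon 3.83%, all peaks 2.53%). In AP-1 and CEBP content the 3' UTR and transcript-end classes were closer to all peaks than the 5' UTR class was.

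Motif shares also differed between the peaks higher and lower after LPS. AP-1 was found in 17.6% of the 148 selected peaks higher after LPS in either population and in 0.654% of the 153 lower. CEBP was found in 16.9% and 7.19%, RUNX (TGTGGTT) in 5.41% and 3.27%, and PU.1 in 6.76% and 9.80%. Over all peaks of the LPS table AP-1 stood at 9.14%, CEBP at 7.08%, RUNX at 3.27% and PU.1 at 5.99%. The NF-kappaB motif was in none of the windows of the higher or lower peaks and in 0.357% of all peaks of the LPS table. The higher and lower sets were not compared in class make-up or GC content, and their part in these shares was not tested. Among untreated peaks, AP-1 was found in 9.72% of those higher in engrafted cells and 2.88% of those higher in host microglia, against 4.95% of all peaks. CEBP was found in 16.7% and 1.92% (12 of 72 and 2 of 104 peaks, all peaks 5.44%), IRF in 6.94% and 0.962% (5 and 1 peaks, all peaks 2.22%), and PU.1 in 11.1% and 11.5% (all peaks 7.45%). Among the LPS calls CEBP was found in 4 of 22 and 2 of 36 peaks, and IRF in 0 of both. The untreated sets also differed in GC content (median 45.5% and 57.0%), whose part in these shares was not tested. A match describes the sequence and not the binding of a factor.

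**Figure D5:**
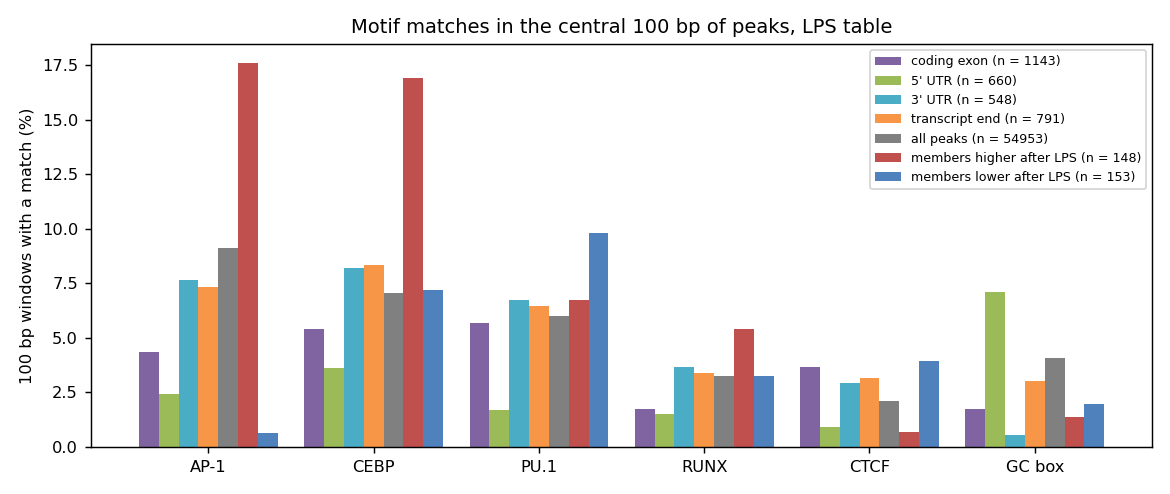
Share of the central 100 bp windows of LPS-table peaks that hold each motif (vertical axis, percent), by class, for all peaks, and for the selected peaks higher or lower after LPS in either population. AP-1 stood at 17.6% in peaks higher and 0.654% in peaks lower after LPS, and the GC box was most frequent in 5' UTR peaks.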

How the data were processed

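Brain macrophage populations of 6 chimeric mice gave 12 ATAC-seq libraries, grouped by GEO's labels. The authors deposited HOMER tables, 1 per treatment, in which the peaks of 6 libraries were merged and annotated on mm9. The authors deposited these values as unnormalized tags per peak in steps of 0.5 (estimated counts, per the file headers), which were rounded here. The submitters' processing notes name bcl2fastq 2.17.1.14, Bowtie2, Picard 1.108 and HOMER. Duplicate handling and a Tn5 shift are not given in the sources used here.

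Each table was fitted whole with DESeq2 1.42.0 (R 4.3.3; peaks above 10 tags in at least 1 of 6 libraries), giving 59170 and 49180 tested peaks, and 39235 matched pairs in the fit of 12 libraries. Alternatives used edgeR 4.0.16, other scaling and filters, mouse blocks, other matching and single libraries left out. The main DESeq2 fit of each table and that of the interaction were tested on simulated data. The alternatives and the comparisons of LPS against untreated were not. Sorted populations of 1 mouse share its number, and this pairing comes from the animal; deviations of same-numbered libraries correlated with r from -0.0665 to 0.149. Shares were compared by exact paired permutation over 6 mice, two-sided, with scipy 1.17.1.

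Genes come from the RefSeq accession of each annotation, found for 3573 untreated and 3116 LPS members. Floors (3 tags) cover counting error only. Values after ± are standard errors of the fit for fold changes and SDs over mice for shares. Both also include variation between libraries. Named peaks were the 5 called with the smallest adjusted p per table and direction, the leading one of each class without one, the 3 leading LPS calls per direction and population, the densest of each class, and examples from the gene lists. The members, lists and tests were chosen with earlier results of these data known. The values of 1 microglia marker are not reported here.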

Additional observations from a re-analysis of the deposited data

Results flagged for a closer look

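The exon 5 peak of Asph stood out because the response to LPS differed between engrafted cells and host microglia by the interaction test (log2 difference -1.85). The adjusted p stayed at or below 0.0430 in the 14 alternatives that could be run for it.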

How the results depend on the processing

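LPS libraries held fewer tags, and their calls were few. A mean count of at least 20 left 19 and 29 untreated calls (higher in engrafted cells and in host microglia) and 4 and 7 LPS calls. Without a fold limit 131 untreated peaks were higher in engrafted cells, and 161 were higher after LPS in engrafted cells. By edgeR the LPS table gave 35 and 55 calls and the interaction 4. The replicate block, with pairing by mouse, gave 7 and 21 LPS calls and 2 interaction calls, and with a GC correction 40 untreated peaks higher in engrafted cells and 6 and 23 LPS calls. It also lowered calls of single classes, as given above, and lost the untreated call of Tnfaip2 and the LPS calls of Pax9 and Cd163. Scaled to total tags, LPS against untreated gave 56 higher and 40 lower peaks in engrafted cells and 62 and 39 in host microglia. Pairs overlapping by at least 80% gave 20 and 32, and 23 and 12, and pairs of similar width 28 and 43, and 32 and 18, both with 0 interaction calls; fewer pairs were tested in both. As a share of all library tags, the difference of the 4 classes turned from -0.295 to 0.0118 points, and those of 5' UTR, 3' UTR and transcript-end peaks to 0.0135, 0.00445 and 0.0199, and without single mice that of transcript-end peaks ranged from -0.0439 to 0.00157. The cause was not tested. Leaving out single libraries gave 42 to 69 and 55 to 82 untreated calls, 4 to 12 and 10 to 24 LPS calls, and 0 and 1 to 3 interaction calls. LPS against untreated gave 74 to 91 higher and 47 to 111 lower peaks in engrafted cells and 78 to 117 and 32 to 68 in host microglia. Leaving out single mice gave share differences of -0.204 to -0.162 points in coding exons and -0.343 to -0.229 in the 4 classes. Of the alternatives run for single named values, 679 kept the call and direction, 13 lost the call and 4 changed direction, all 4 of them class shares.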
